A study of Mus musculus with 9 samples.

Results

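The nuclear genes of the mitochondrial respiratory chain were described in mouse liver across 9 RNA-seq libraries. They were chosen by symbol: names that start with Nduf, Uqcr, Atp5 or Cox4 to Cox8, together with Sdha, Sdhb, Sdhc, Sdhd, Cyc1 and Cycs, without names that carry -ps or -rs. The rule found 100 of the 54532 genes in the count table and left out 9 names. Of the 100, 47 belong to complex I, 4 to complex II, 9 to complex III, 21 to complex IV, 18 to complex V and 1 is cytochrome c. By role, 76 are structural subunits, 8 are the complex I assembly factors Ndufaf1 to Ndufaf8, 8 are tissue isoforms, 5 are extra copies, and Cycs, Cox7a2l and Atp5s stand alone as the electron carrier, a supercomplex factor and a coupling factor. After the filter on low counts 92 were tested, among them all 76 structural subunits and all 8 assembly factors.

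The libraries came from the livers of male C57BL/6 mice, 3 per group and 1 mouse each. The old Fabp4 shRNA mice received adeno-associated virus 9 with a hairpin RNA against Fabp4, a fatty acid carrier of fat cells and macrophages, and the old control mice received the same vector with a negative control hairpin (AAV9-shRNA-Neg). In both old groups the virus was given at 14 months into the tail vein and the subcutaneous fat, and the liver was taken at 20 months. The young mice were 8 weeks old and no injection of them is described, so age and virus cannot be told apart in a comparison with young liver. Each group held 15 mice, of which 3 were sequenced, and no source used here names the promoter that drives the hairpins.

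The respiratory chain sits in the inner mitochondrial membrane. Complex I (NADH dehydrogenase) and complex II (succinate dehydrogenase) pass electrons to complex III (cytochrome bc1), cytochrome c carries them to complex IV (cytochrome c oxidase), and complex V (ATP synthase) uses the proton gradient so built. Most subunits are made from nuclear genes, a few come from mitochondrial DNA, and assembly factors help build the complexes without staying in them. In liver this chain feeds energy-costly work such as glucose and urea synthesis.

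Total counts were 14243344 to 17125440 per library, and 3 counts, used as the floor of detection, stood for 0.157 to 0.229 CPM (counts scaled to library size with TMM factors), which covers counting error only. Of the members, 43 overlap another annotated gene, 34 of them one on the opposite strand, and no source used here says whether counting used strand. The members took 1.18% to 1.62% of all counts. Fabp4 itself was 11.2, 3.81 and 7.58 CPM in old Fabp4 shRNA livers, 7.21, 13.6 and 10.9 CPM in old control livers and 3.40, 2.67 and 64.8 CPM in young livers (old Fabp4 shRNA against old control, log2 difference -0.49 ± 1.16, adjusted p = 0.960, edgeR), so no direction given here rests on a measured knockdown. All 12 hepatocyte markers were detected in every library. In whole liver, fewer cells of a type and less RNA per cell cannot be told apart. Among the libraries 2 stood apart. One young column carries a name that matches no young mouse in the labels and is called the unnumbered young library. Its 16 skeletal muscle markers summed to 4957 CPM with 0 of them at 0 counts, and the FPKM column of the same name holds other reads, in which the sum was 16.0 CPM. The Fabp4 value of 64.8 CPM is that of the unnumbered library, and in the other reads Fabp4 was 2.52 CPM. All 9 libraries share 1 estimate of spread, so the 64.8 CPM also enters the standard error given for Fabp4. Old Fabp4 shRNA replicate 3 had 107 CPM of muscle markers, against 8.02 to 13.7 CPM in the 7 libraries other than these, and its longer mRNAs stood at higher levels. Across 12474 tested genes its deviation from the 9-library mean went with mRNA length at a Spearman rho of 0.330, against -0.209 to 0.103 in the other 8. By group that rho was -0.209 to -0.080 in young livers and -0.016 to 0.103 in old control livers. In old Fabp4 shRNA replicates 1 and 6 it was -0.0017 and -0.081. The part of mRNA length in the comparisons with young livers was not tested. Results that rest on the 2 libraries that stood apart are given with and without them.

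Levels per length were compared in the deposited FPKM (fragments scaled by gene length and library size), as the mean over the 8 libraries whose FPKM and counts match. The median subunit stood at 227 FPKM in complex IV, 186 in complex III, 88.8 in complex V, 69.1 in complex II and 62.0 in complex I. The Ndufaf assembly factors had a median of 7.76 FPKM and a highest value of 20.7 FPKM. Cytochrome c (Cycs) stood at 32.7 FPKM. Within complex IV the highest was Cox6a1, the liver form of a regulatory subunit, at 540.0 FPKM (431 to 814), and the lowest Cox5a, another nuclear subunit, at 25.1 FPKM (16.1 to 32.4). Complex III ran from Uqcrc2, a core protein, at 43.7 FPKM (33.7 to 57.9) to Uqcrq, a small accessory subunit, at 319 FPKM (178 to 433). Complex V ran from Atp5l, the g subunit of its membrane part, at 15.4 FPKM (9.56 to 19.7) to Atp5h, the d subunit of its stalk, at 187 FPKM (84.6 to 253). Complex II ran from Sdhc, a membrane anchor, at 36.6 FPKM (28.3 to 55.0) to Sdhb, its iron-sulfur subunit, at 87.2 FPKM (56.3 to 148). Complex I ran from Ndufb2 at 1.73 FPKM (1.08 to 2.19) to Ndufa1 at 204 FPKM (131 to 316), both accessory subunits. The length used for FPKM matters here, since it is that of all annotated exons joined in 95% of genes and was 5628 bases for Ndufb2 and 6443 bases for Atp5l, against 419 bases for Ndufa1 and 702 bases for Cox6a1.

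How the chain differs with age was asked by setting old control livers against young ones. The median subunit of every complex stood lower in old control liver. The median log2 fold change of the 76 structural subunits was -0.40, against 0.012 over all 14025 genes tested. All 76 were below 0 (without TMM factors 71 of 76, with the median of all genes at 0.16), where 48.9% of all genes were. From here on, without scaling means without TMM factors, with libraries scaled to their total counts alone. By complex the median was -0.56 in complex II, -0.53 in complex III, -0.43 in complex V, -0.41 in complex IV and -0.38 in complex I (without scaling -0.42, -0.37, -0.30, -0.27 and -0.23). These medians lie within 0.18 of each other, while the median standard error of a single member was 0.25.

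No single member passed the test: 0 of 92 were called at an adjusted p under 0.05 by edgeR's quasi-likelihood test with Benjamini-Hochberg adjustment over all tested genes, where 0.0357% of all genes were called. At an unadjusted p under 0.05, 28 of 92 members (30.4%) were lower and 0 were higher, against a background of 4.07% lower and 6.42% higher. In 37 of 92 members (40.2%) all 3 old control libraries lay below all 3 young ones and in 0 above, against 8.26% below and 8.89% above among all genes. Of the 28, 8 were structural subunits of complex I, 2 of complex II, 5 of complex III, 2 of complex IV and 7 of complex V, and the other 4 were Ndufaf5, Cox7a2l, Cox7a1 and Ndufa4l2. limma-voom called 0 members and DESeq2 called 2, Cox7a2l (adjusted p = 0.0354) and Cox7a1 (0.0429). Among all 14025 genes tested, limma-voom called 3 and DESeq2 168. The 28 became 7 without scaling, 10 without old control replicate 5 and 16 without young replicate 1. Without the unnumbered young library 27 members were lower, of which 20 were among the 28, and the subunit median was -0.49.

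Markers of other liver cell types differed between the groups as well, with no marker outside the muscle and fat cell lists at 0 counts in any library. In summed CPM, the 4 B and plasma cell markers were 106 to 281 in old Fabp4 shRNA livers, 198 to 498 in old control livers and 74.3 to 85.6 in young livers. The 7 endothelial markers were 91.0 to 188 in old Fabp4 shRNA livers, 102 to 191 in old control livers and 73.0 to 88.3 in young livers. In old control against young, 3 of the 4 and 5 of the 7 genes were higher at an unadjusted p under 0.05. So were 3 of 7 Kupffer cell and macrophage markers, which summed to 93.1 to 162 CPM in old Fabp4 shRNA livers, 160.1 to 494 CPM in old control livers and 128 to 203 CPM in young livers. The 494 CPM was that of old control replicate 1 alone, with 170 and 160.1 CPM in old control replicates 2 and 5, within the young range. Of the remaining lists 2 of 6 stellate, 1 of 4 bile duct, 1 of 4 neutrophil and 0 of 3 tested T cell markers were higher. Of 8 fat cell markers 3 were tested and 2 were higher, while Plin1 and Lep, which mark fat cells, were at 0 counts in 8 of 9 libraries. The library that held them was old control replicate 2, at 0.736 and 0.515 CPM. The fat cell markers Adipoq and Cidec were also highest there, at 0.957 and 85.6 CPM, with Adipoq at most 0.305 CPM in the other libraries. The 5 red cell genes, of which 5 were lower, summed to 170.1 to 359 CPM in old Fabp4 shRNA livers, 188 to 328 CPM in old control livers and 520.4 to 1025 CPM in young livers. The 12 hepatocyte markers, of which 1 was lower and 0 higher, summed to 91729 to 110483 CPM in old Fabp4 shRNA livers, 104742 to 159587 CPM in old control livers and 126880.3 to 192320.5 CPM in young livers. Their part in the lower subunit levels of old livers was not tested.

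The plot of group medians by library shows how the libraries spread. Relative to the mean of the 9 libraries, the median structural subunit deviated by 0.016, -0.54 and -0.040 on the log2 scale in old Fabp4 shRNA replicates 1, 3 and 6, by -0.24, -0.0029 and -0.14 in old control replicates 1, 2 and 5, and by 0.43, 0.32 and 0.19 in young replicates 1 and 5 and the unnumbered young library. Every young library was thus above every old one. Of the 76 subunits, 35 were highest in young replicate 1, 21 in young replicate 5 and 15 in the unnumbered young library. Old Fabp4 shRNA replicate 3 was the lowest library for 48 of them.

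**Figure D1:**
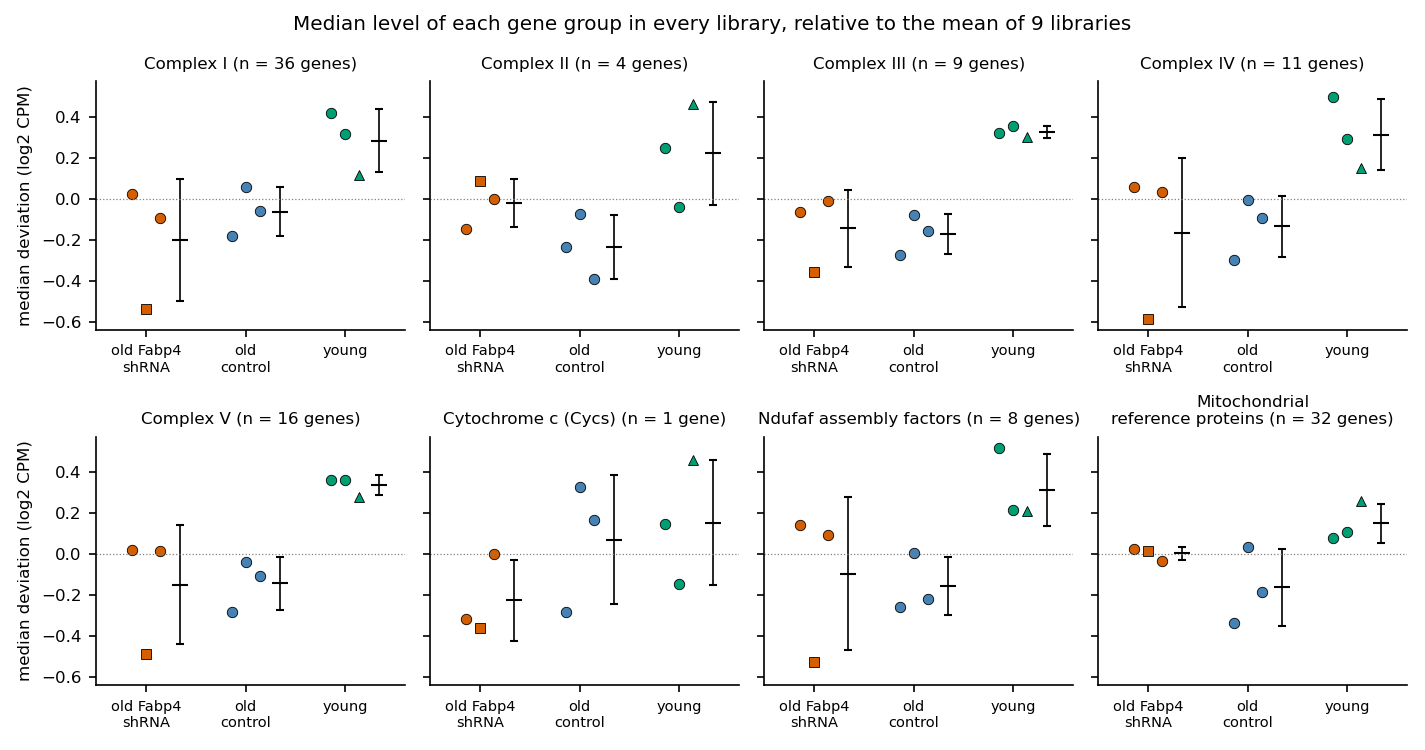
Median deviation of each gene group from the 9-library mean (y axis, log2 CPM) in every library of the old Fabp4 shRNA, old control and young groups; squares mark old Fabp4 shRNA replicate 3, triangles the unnumbered young library, and bars the group mean and SD (n = 3 libraries). In complexes I, III, IV and V all 3 young libraries lie above all 6 old ones, while complex II and cytochrome c overlap between the groups.

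In complex I, Ndufv1 carries the flavin that takes electrons from NADH. In what follows, a value with ± is a log2 fold change with its standard error, and adjusted p-values are from edgeR. Ndufv1 was 91.0, 90.9 and 65.7 CPM in old control livers, against 127, 121 and 162 CPM in young livers. All old control values lay below all young ones (-0.73 ± 0.21, adjusted p = 0.296), also without the unnumbered young library, the highest of them (-0.62 ± 0.23, and -0.47 ± 0.21 with the other reads of that name). The 7 core subunits of complex I ran from -0.73 (Ndufv1) to -0.14 (Ndufs7), and the 29 accessory subunits from -0.69 (Ndufa1) to -0.086 (Ndufab1). The accessory subunits with an unadjusted p under 0.05 were Ndufa1 (-0.69), Ndufb3 (-0.60), Ndufa2 (-0.59), Ndufb11 (-0.54), Ndufb5 (-0.47), Ndufb8 (-0.41) and Ndufa9 (-0.40). The accessory subunit Ndufa1 was 83.7, 69.2 and 62.2 CPM in old control livers, against 136, 109.8 and 101 CPM in young livers (-0.69 ± 0.26). Ndufb2, the subunit of this complex with the lowest FPKM, was 9.71, 10.4 and 8.71 CPM in old control livers and 11.3, 11.5 and 8.17 CPM in young livers, which overlap (-0.10 ± 0.28, and 0.050 without scaling).

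In complex II, Sdhb holds the iron-sulfur clusters between the flavin subunit Sdha and the membrane anchors Sdhc and Sdhd. Sdhb was 171, 193 and 179 CPM in old control livers, against 341, 271 and 239 CPM in young livers (-0.65 ± 0.22, adjusted p = 0.366). Sdhd was 90.1, 86.6 and 77.7 CPM in old control livers, against 104, 122 and 178 CPM in young livers (-0.67 ± 0.22, adjusted p = 0.366). Neither gene's groups overlapped, but the highest young Sdhd value belonged to the unnumbered library, and without it the fold change was -0.45 ± 0.22, and with the other reads of that name -0.40 ± 0.18. Sdha was 186, 205 and 146 CPM in old control livers, against 214, 195 and 329 CPM in young livers, with overlap (-0.46 ± 0.29). Sdhc was 119.8, 127 and 108 CPM in old control livers, against 184, 112 and 161 CPM in young livers, which overlap (-0.37 ± 0.22).

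In complex III, Uqcrc1 is a core protein and Cyc1 is cytochrome c1, the haem protein that hands electrons to cytochrome c. Uqcrc1 was 183, 238 and 197 CPM in old control livers, against 283, 309 and 319.8 CPM in young livers (-0.56 ± 0.20, adjusted p = 0.380). Cyc1 was 146, 154 and 140.3 CPM in old control livers, against 192, 226 and 217 CPM in young livers (-0.53 ± 0.19, adjusted p = 0.385). Both were below young in all 3 old control livers. The other members of complex III with an unadjusted p under 0.05 were Uqcr11 (-0.56), Uqcrh (-0.56) and Uqcrfs1 (-0.53), of which Uqcrfs1 is the Rieske iron-sulfur protein. Uqcrc2, the second core protein, had -0.34 ± 0.25 and Uqcrq -0.34 ± 0.27, while Uqcrb, which overlaps a gene on the opposite strand, had -0.0036 ± 0.26. Cycs, cytochrome c itself, was 97.7, 149 and 133 CPM in old control livers and 132, 107 and 163 CPM in young livers, which overlap. Its log2 fold change of -0.082 ± 0.23 (95% interval -0.59 to 0.43) was 0.057 ± 0.26 without the unnumbered young library.

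In complex IV the smallest p belonged to Cox7a2l, the supercomplex factor. It was 66.1, 59.0 and 51.4 CPM in old control livers, against 80.2, 109.7 and 111 CPM in young livers, without overlap (-0.77 ± 0.21, adjusted p = 0.263). Without the unnumbered young library the fold change was -0.72 ± 0.23. The reads behind the FPKM column of the unnumbered library gave 53.5 CPM in place of 111, with which it was -0.49 ± 0.24. Cox5a was 49.4, 46.3 and 35.3 CPM in old control livers, against 50.2, 55.6 and 101 CPM in young livers (-0.66 ± 0.26), and -0.31 ± 0.22 without that library. Cox5a also overlaps a gene on the opposite strand. The 11 structural subunits of complex IV ran from -0.66 (Cox5a) to -0.27 (Cox7c), and besides Cox5a only Ndufa4 (-0.57 ± 0.23), which is now counted as a subunit of this complex, had an unadjusted p under 0.05. Cox6a1 was 383, 383 and 345 CPM in old control livers, against 588, 403 and 369 CPM in young livers (-0.29 ± 0.23), with overlap.

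In complex V, Atp5g1 and Atp5g3 encode the same ring subunit c with different import signals. Atp5g1 was 129, 148 and 151 CPM in old control livers, against 249, 225 and 205 CPM in young livers (-0.67 ± 0.21, adjusted p = 0.326). Atp5g3 was 318, 295 and 276 CPM in old control livers, against 420.0, 419 and 454 CPM in young livers (-0.54 ± 0.21, adjusted p = 0.408). In both genes all old control values were below all young ones. The 5 subunits of the catalytic F1 head ran from -0.63 (Atp5e) to -0.34 (Atp5c1), with Atp5e (-0.63), Atp5a1 (-0.56) and Atp5d (-0.47) at an unadjusted p under 0.05. The 11 subunits of the membrane part and stalks ran from -1.17 (Atp5k) to -0.12 (Atp5h). The lowest of these belonged to Atp5k, the e subunit (-1.17 ± 0.52), named after its values were seen, whose values ran from 14.0 to 49.7 CPM within old control and from 39.4 to 75.3 CPM within young liver. Atp5l had -0.31 ± 0.22. Atp5h was 214, 329 and 344 CPM in old control livers and 381, 351 and 233 CPM in young livers (-0.12 ± 0.33), with overlap.

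**Figure D2:**
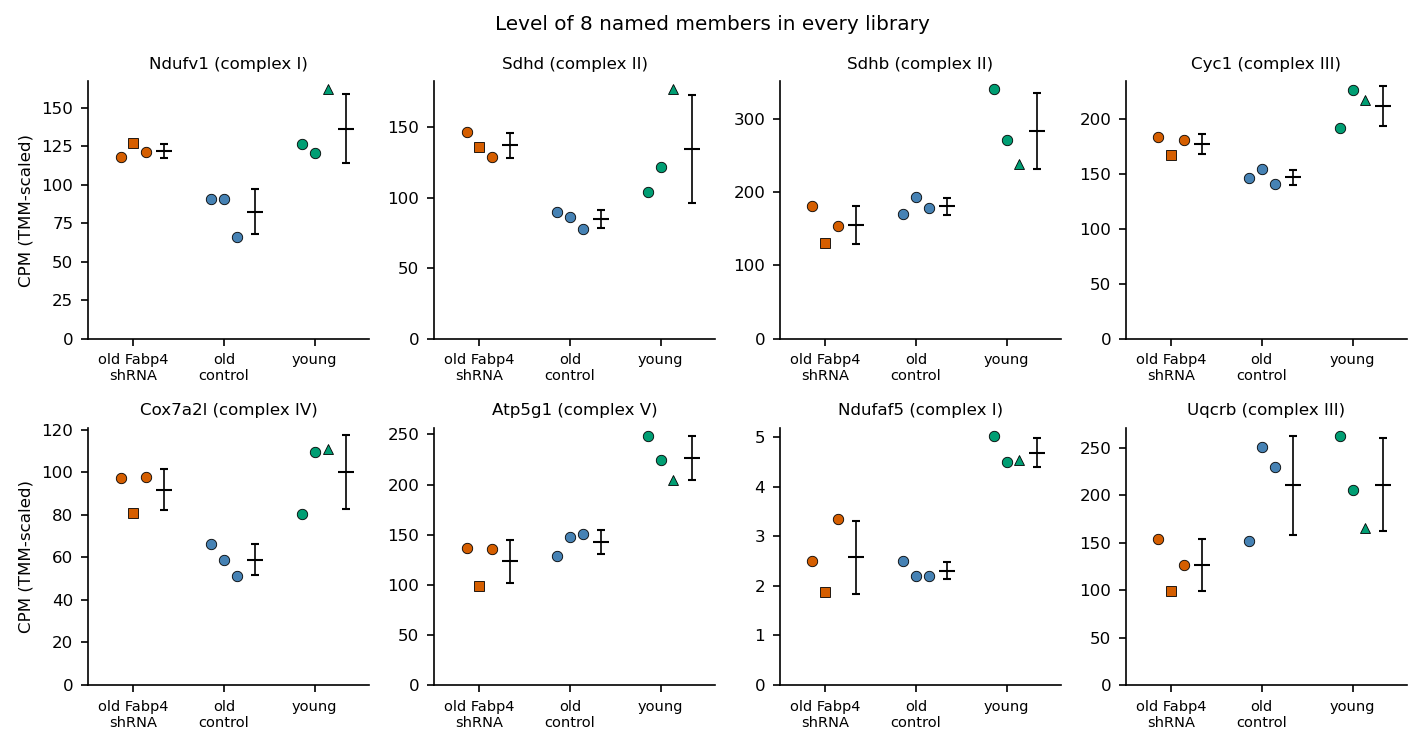
Level (y axis, TMM-scaled CPM) of 8 named members in every library of the old Fabp4 shRNA, old control and young groups; squares mark old Fabp4 shRNA replicate 3, triangles the unnumbered young library, and bars the group mean and SD (n = 3 libraries). Ndufv1, Sdhd and Cox7a2l are lowest in old control, Sdhb, Atp5g1 and Ndufaf5 are low in both old groups, and Uqcrb is lowest in old Fabp4 shRNA with overlap.

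The upstream sequence of 4 of these genes is shown because they had the smallest p among structural subunits with an entry in the RefSeq promoter table (build GRCm38.p6). Each line gives the 250 bases before the start, 5′ to 3′ on the gene's strand, in lower case. The start is that of the RefSeq entry. It lay 51, 39, 37 and 68 bases from the start of the annotated gene, in the order shown. Capitals mark the letters of 3 motifs searched on both strands: GCATGCGC (the core of the NRF1 site), CCGGAAG (the core of the ETS site that GABP binds) and AAGATGGC (the core of the YY1 site), factors known to bind promoters of respiratory genes. The regions are chr19:4012756-4013005 (minus strand), chr11:96075632-96075881 (minus), chr9:50603850-50604099 (minus) and chr4:140961021-140961270 (plus).
Ndufv1: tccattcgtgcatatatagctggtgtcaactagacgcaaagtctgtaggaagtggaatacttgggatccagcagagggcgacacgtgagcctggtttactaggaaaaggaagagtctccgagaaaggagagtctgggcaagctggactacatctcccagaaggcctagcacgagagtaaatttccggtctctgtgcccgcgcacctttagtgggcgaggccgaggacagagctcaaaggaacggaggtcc
Atp5g1: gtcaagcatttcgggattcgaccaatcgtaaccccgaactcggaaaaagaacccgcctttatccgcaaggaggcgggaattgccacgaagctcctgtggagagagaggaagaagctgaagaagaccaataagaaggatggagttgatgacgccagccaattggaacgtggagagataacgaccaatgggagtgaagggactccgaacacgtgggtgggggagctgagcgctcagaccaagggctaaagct
Sdhd: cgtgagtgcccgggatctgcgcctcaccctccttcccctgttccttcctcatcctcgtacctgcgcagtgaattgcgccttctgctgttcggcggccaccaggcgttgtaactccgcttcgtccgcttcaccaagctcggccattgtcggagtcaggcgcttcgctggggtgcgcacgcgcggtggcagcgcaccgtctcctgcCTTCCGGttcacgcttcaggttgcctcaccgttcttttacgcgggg
Sdhb: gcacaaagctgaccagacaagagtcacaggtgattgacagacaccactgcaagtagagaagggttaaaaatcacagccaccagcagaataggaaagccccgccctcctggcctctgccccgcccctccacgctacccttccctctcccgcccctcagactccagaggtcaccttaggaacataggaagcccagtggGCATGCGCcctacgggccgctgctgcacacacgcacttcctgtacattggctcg
Sdhd held the ETS letters on the opposite strand, between 46 and 40 bases before its RefSeq start. Sdhb held the NRF1 letters between 54 and 47 bases before its RefSeq start. The annotated Sdhb gene starts at 140961203, within the window, and these letters lie past that start. Ndufv1 and Atp5g1 held none of the 3 in these windows. Over the table's windows of 300 bases, 62 of the 76 structural subunits were matched. Of those 62 genes 16.1% held the NRF1 letters, against 5.7% of the 10300 tested genes in the table and 3.05% of all 27025 genes in it. The ETS letters were in 25.8% of subunit genes, 19.4% of tested genes and 9.93% of all genes. The YY1 letters were in 14.5%, 5.11% and 3.19% of the same sets. The median log2 fold change in old control against young was -0.41 for the 10 subunits with the NRF1 letters and -0.42 for the 52 without, -0.37 for the 16 with the ETS letters and -0.42 for the 46 without, and -0.40 for the 9 with the YY1 letters and -0.43 for the 53 without.

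None of the 8 Ndufaf genes, the assembly factors of complex I, was called by edgeR in any comparison. They had a median log2 fold change of -0.44 in old control against young, beside -0.38 for the 36 structural subunits of complex I. Of these Ndufaf genes 8 of 8 were below 0, also without TMM factors, where the median was -0.31. Ndufaf5, an arginine hydroxylase that acts on a complex I subunit, was the only one with an unadjusted p under 0.05. It was 2.50, 2.21 and 2.21 CPM in old control livers, against 5.03, 4.50 and 4.53 CPM in young livers (-1.02 ± 0.34, adjusted p = 0.366), without overlap. The other log2 fold changes were -0.56 ± 0.28 for Ndufaf2, -0.54 ± 0.27 for Ndufaf8, -0.45 ± 0.26 for Ndufaf3, -0.43 ± 0.23 for Ndufaf1, -0.40 ± 0.26 for Ndufaf6, -0.32 ± 0.24 for Ndufaf4 and -0.27 ± 0.27 for Ndufaf7, a methyltransferase. In old Fabp4 shRNA against old control the Ndufaf median was 0.095, beside -0.11 for the subunits (0.25 and 0.054 without scaling), and in old Fabp4 shRNA against young it was -0.40, beside -0.49. No test was made between the lists.

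Of 48 other assembly factors (for complexes I to V, among them the copper and haem factors of complex IV), 45 were tested. Their median in old control against young was -0.29, with 41 of 45 below 0 (34 without scaling), 3 lower and 0 higher at an unadjusted p under 0.05, and 0 called. Among all genes 48.9% were below 0 and 4.07% lower at that p, so by that p the 3 of 45 are near the background. In 15 of the 45 all 3 old control libraries lay below all 3 young ones and in 0 above, against 8.26% and 8.89% among all genes. Cox10, a haem factor of complex IV, was 5.99, 6.48 and 5.62 CPM in old control livers, against 13.3, 11.1 and 17.3 CPM in young livers (-1.21 ± 0.28, adjusted p = 0.192). The old control values were all below the young ones. Uqcc1, a factor for cytochrome b of complex III, was 17.5, 30.4 and 21.2 CPM in old control livers, against 33.6, 30.9 and 37.0 CPM in young livers (-0.56 ± 0.22, adjusted p = 0.419), with no overlap.

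Among the tissue isoforms of complex IV, the muscle forms stood high in 1 library, the unnumbered young one. Cox6a2, Cox7a1 and Cox8b encode the forms of heart and skeletal muscle, in place of Cox6a1, Cox7a2 and Cox8a in liver. Cox7a1 was 1.63, 1.25 and 1.33 CPM in old control livers, against 4.66, 2.06 and 36.1 CPM in young livers, of which the last is the unnumbered library. The log2 fold change was -3.34 ± 0.94 (adjusted p = 0.319) and -1.29 ± 0.49 without that library. Cox6a2 was 61.2 CPM there and at most 0.386 CPM in the other 8 libraries. Cox8b was 46.5 CPM there and at most 0.442 CPM elsewhere. In the other reads deposited under that name Cox6a2, Cox7a1 and Cox8b were 0.0970, 2.04 and 0.194 CPM. In old Fabp4 shRNA replicate 3, which also held muscle markers, they were 0.386, 0.938 and 0.331 CPM.

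**Figure D3:**
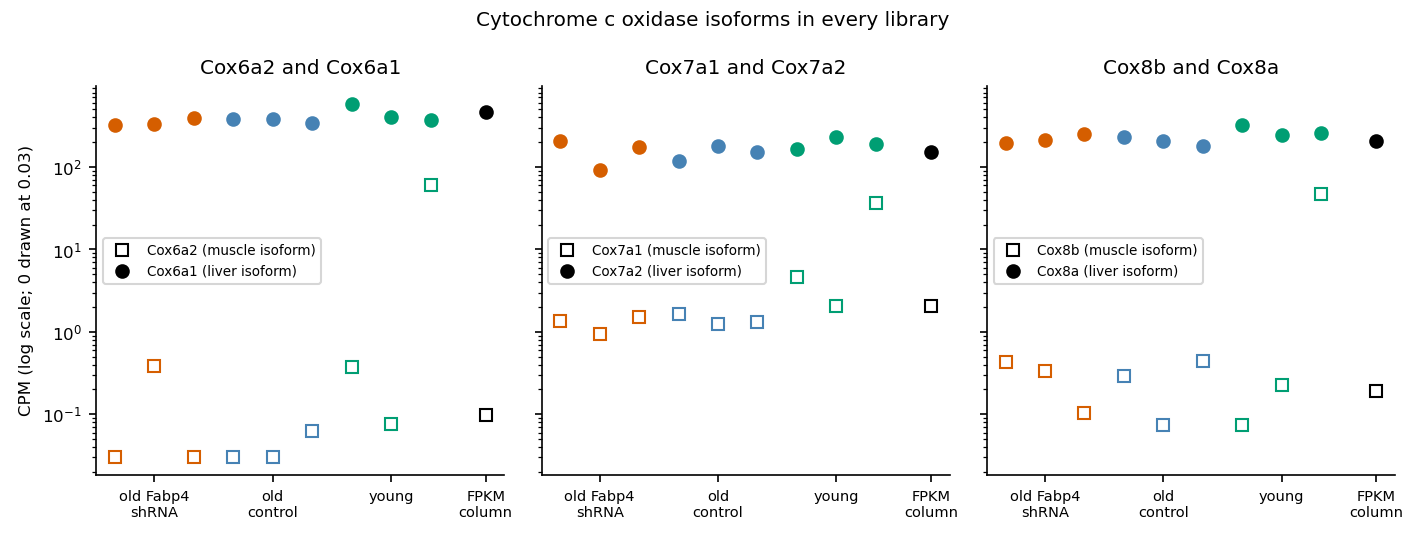
Muscle (open squares) and liver (filled circles) isoforms of 3 complex IV subunits in every library (y axis, CPM on a log scale, 0 drawn at 0.03), by group from old Fabp4 shRNA over old control to young, with black symbols for the other reads, those behind the FPKM values of the unnumbered young library. The muscle isoforms reach 36.1 to 61.2 CPM in the unnumbered young count column, the last young library, while the liver isoforms stay within the range of the other libraries.

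Ndufa4l2, a hypoxia-induced relative of Ndufa4, was 0.930, 0.883 and 1.20 CPM in old control livers, against 3.55, 4.27 and 2.49 CPM in young livers (-1.76 ± 0.56, adjusted p = 0.326). These groups did not overlap, and the fold change was -1.98 ± 0.59 without the unnumbered library. The gene lies opposite to Shmt2, whose reads could not be kept apart if strand was not used in counting. Cox6b2, a form of testis, was 0.349, 0.589 and 0.568 CPM in old control livers and 1.40, 0.458 and 1.66 CPM in young livers, with overlap (-1.23 ± 0.61). Cox4i2, a lung form, was not tested and reached at most 0.639 CPM. The copies Ndufb4c and Ndufs6b had -0.51 ± 0.54 and -0.020 ± 0.75 at levels of at most 4.34 CPM, and Ndufa11b, Cox6c2 and the second gene named Atp5o were not tested. Cox7b2 and Cox8c, both of testis, had 0 counts in all 9 libraries.

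Setting old Fabp4 shRNA livers against old control livers asks what goes with the hairpin. The median subunit lay near the median of all genes, and no test of the chain as a group was made. The median log2 fold change of the 76 structural subunits was -0.059, with 44 of 76 below 0, against -0.013 and 51.4% over all tested genes. Without TMM factors the subunit median was 0.10 and that of all genes 0.13. Without old Fabp4 shRNA replicate 3 the subunit median was 0.080, so its sign was not stable. By complex the medians were 0.26 in complex II, 0.093 in complex III, -0.024 in complex V, -0.082 in complex IV and -0.11 in complex I, the last 3 of which were above 0 without scaling (0.13, 0.059 and 0.054). Beside this, 4 of 4 neutrophil markers and 4 of 7 Kupffer cell and macrophage markers were lower at an unadjusted p under 0.05 in old Fabp4 shRNA livers, and their part in these values was not tested. The Kupffer cell and macrophage sum was 494 CPM in old control replicate 1, against 170 and 160.1 CPM in old control replicates 2 and 5.

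No member was called by edgeR at an adjusted p under 0.05 (0 of 92, background 0%), nor by DESeq2 or limma-voom. Among all 14025 genes DESeq2 called 7 and limma-voom 0. At an unadjusted p under 0.05, 1 member was lower and 4 were higher, which is 1.09% and 4.35% of the 92, against 3.48% lower and 3.27% higher among all genes and so near the background. All 3 old Fabp4 shRNA libraries lay below all 3 old control ones in 3 members (3.26%, background 5.67%) and above them in 11 (12.0%, background 6.02%). The 3 were Ndufb4, Ndufc2 and Ndufs3, all of complex I. Among the 11 were Ndufv1, Sdhd, Cox5a and Cox7a2l, the 4 members higher at an unadjusted p under 0.05. The count of lower members was 8 without old Fabp4 shRNA replicate 1, 6 without old control replicate 1 and 0 without old control replicate 2 or 5, and that of higher members was 2 without old control replicate 5 and 8 without scaling.

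The smallest p belonged to Cox7a2l, at 97.1, 80.9 and 97.6 CPM in old Fabp4 shRNA livers, against 66.1, 59.0 and 51.4 CPM in old control livers (0.64 ± 0.21, adjusted p = 0.728). Sdhd was 147, 136 and 129 CPM in old Fabp4 shRNA livers, against 90.1, 86.6 and 77.7 CPM in old control livers (0.69 ± 0.22, adjusted p = 0.728). In both genes all 3 old Fabp4 shRNA values lay above all 3 old control values. Sdha, the flavin subunit of complex II, had 0.59 ± 0.29 and Sdhb -0.22 ± 0.22, so the 4 members of this complex did not share a direction. The highest Sdha value of all libraries, 379 CPM, was that of old Fabp4 shRNA replicate 3, so its fold change rests in part on that library. Its raw counts were 3253, 6872 and 4379 in old Fabp4 shRNA replicates 1, 3 and 6. Ndufv1 was 118, 127 and 121 CPM in old Fabp4 shRNA livers, against 91.0, 90.9 and 65.7 CPM in old control livers (0.57 ± 0.21, adjusted p = 0.728), and Cox5a was 72.0, 65.1 and 65.0 CPM in old Fabp4 shRNA livers, against 49.4, 46.3 and 35.3 CPM in old control livers (0.63 ± 0.26, adjusted p = 0.728). Neither overlapped. The comparison with young uses the same old control libraries, so these values are not independent of it. Uqcrb, an accessory subunit of complex III, was 154, 99.2 and 126 CPM in old Fabp4 shRNA livers, against 152, 251 and 229.7 CPM in old control livers, which overlap (-0.74 ± 0.27, adjusted p = 0.728). Without old Fabp4 shRNA replicate 3 its fold change was -0.59 ± 0.29, and the members at an unadjusted p under 0.05 were 0 lower and 7 higher.

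**Figure D4:**
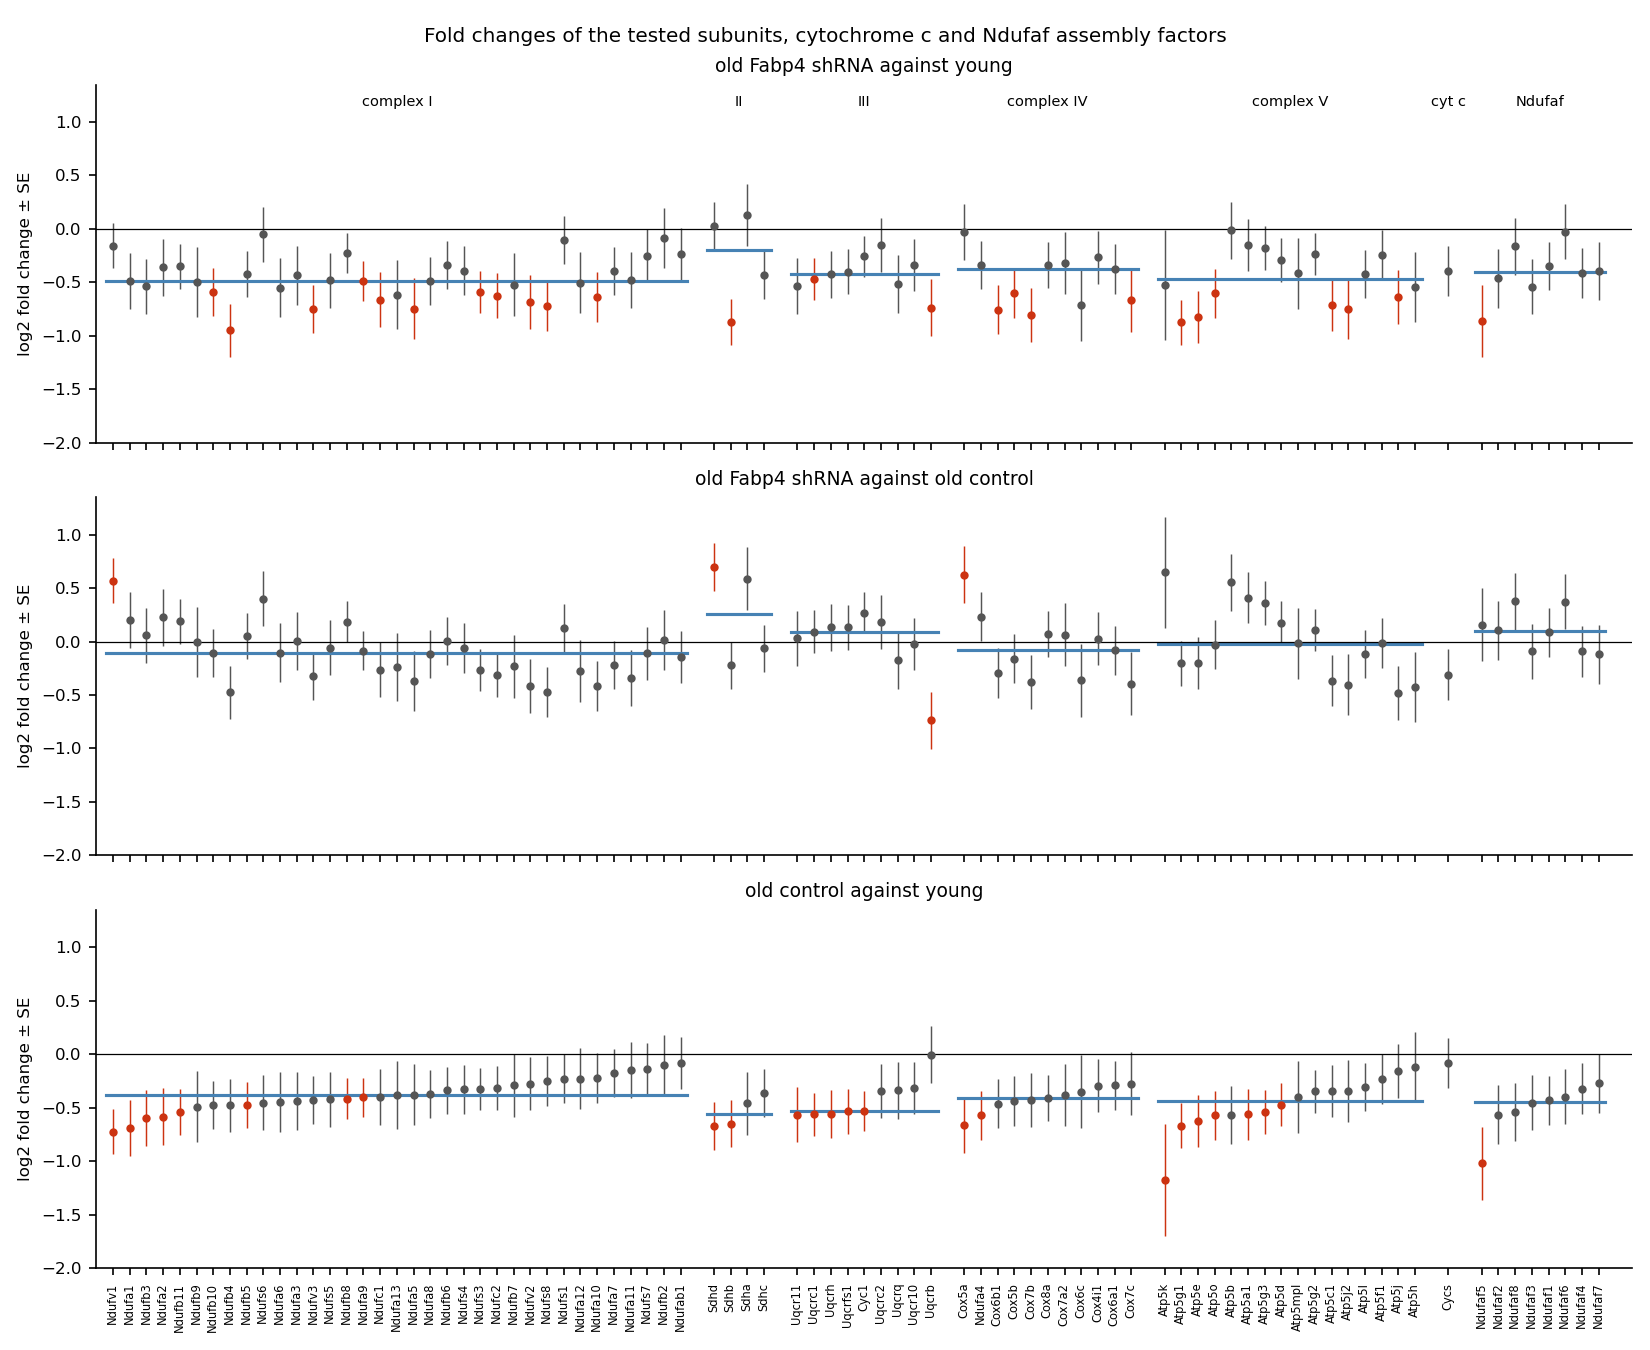
Log2 fold change and standard error (y axis) of tested structural subunits, of Cycs and of the Ndufaf factors (x axis, by complex and ordered by the fold change in old control against young) in the 3 comparisons. Red points have an unadjusted p under 0.05, and blue lines are medians. In old control against young all points lie below 0, and in old Fabp4 shRNA against old control they lie on both sides. Without TMM factors 71 and 28 of the 76 subunits are below 0 in these comparisons.

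The last comparison asks how far old Fabp4 shRNA liver stands from young liver. The median subunit was again lower in the old livers. The median log2 fold change of the structural subunits was -0.48, with 73 of 76 below 0 (57 of 76 without scaling, where the median of all genes was 0.31 and that of the subunits -0.17), against 0.023 and 47.8% over all genes. The medians were -0.49 in complex I, -0.47 in complex V, -0.43 in complex III, -0.37 in complex IV and -0.20 in complex II, where 2 of 4 members were below 0. Without scaling they were -0.18, -0.18, -0.13, -0.065 and 0.080 in the same order. Without old Fabp4 shRNA replicate 3 the subunit median was -0.29. Hepatocyte markers had a median of -0.47 here, with 9 of 12 below 0 and 4 of 12 lower at an unadjusted p under 0.05. In the same comparison 4 of 5 red cell genes and 1 of 7 Kupffer cell and macrophage markers were lower at that p, and 4 of 7 endothelial, 2 of 6 stellate, 1 of 4 B and plasma cell and 1 of 3 tested fat cell markers were higher. The part of these cell types in the subunit levels was not tested.

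Again 0 of 92 members were called by edgeR (background 0.057%). At an unadjusted p under 0.05, 27 (29.3%) were lower and 0 higher, against 4.5% lower and 4.43% higher among all genes, and 14 were lower without old Fabp4 shRNA replicate 3, 14 without young replicate 1, 17 without both libraries that stood apart and 5 without scaling. All 3 old Fabp4 shRNA libraries lay below all 3 young ones in 33 members (35.9%, background 6.67%) and above them in 0 (background 6.79%). DESeq2 called 3 members, Atp5g1, Sdhb and Cox7a1, limma-voom 0, and limma-trend on log2 FPKM 1, Ndufa4l2. Among all genes DESeq2 called 124 and limma-voom 0 of 14025. limma-trend called 53 (pseudocount 1) and 75 (0.1) of 14011. By complex the members with an unadjusted p under 0.05 were Ndufb4 (-0.95), Ndufv3 (-0.75), Ndufa5 (-0.75), Ndufs8 (-0.72), Ndufv2 (-0.69), Ndufc1 (-0.66), Ndufa10 (-0.64), Ndufc2 (-0.63), Ndufs3 (-0.59), Ndufb10 (-0.59) and Ndufa9 (-0.49) in complex I, Sdhb in complex II, Uqcrb (-0.74) and Uqcrc1 (-0.47) in complex III, Cox7b (-0.81), Cox6b1 (-0.76), Cox7c (-0.67) and Cox5b (-0.60) in complex IV and Atp5g1 (-0.87), Atp5e (-0.83), Atp5j2 (-0.75), Atp5c1 (-0.71), Atp5j (-0.64) and Atp5o (-0.60) in complex V, with Ndufaf5, Cox7a1 and Ndufa4l2 besides.

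Atp5g1 was 137, 98.6 and 135 CPM in old Fabp4 shRNA livers, against 249, 225 and 205 CPM in young livers (-0.87 ± 0.21, adjusted p = 0.309). Sdhb was 182, 131 and 154 CPM in old Fabp4 shRNA livers, against 341, 271 and 239 CPM in young livers (-0.87 ± 0.22, adjusted p = 0.333). Ndufb4, an accessory subunit of complex I, was 62.7, 43.2 and 58.5 CPM in old Fabp4 shRNA livers, against 143, 94.0 and 80.1 CPM in young livers (-0.95 ± 0.25, adjusted p = 0.343). In all 3 genes the groups did not overlap. Sdhd had 0.027 ± 0.22, Ndufv1 -0.16 ± 0.21 and Cox7a2l -0.13 ± 0.21 as log2 fold changes here, with 95% intervals of -0.46 to 0.51, -0.61 to 0.30 and -0.57 to 0.32. The highest young value of each was that of the unnumbered library. Without it the fold changes were 0.28 ± 0.22, -0.015 ± 0.23 and -0.046 ± 0.23 in the same order. With the other reads of that name they were 0.32 ± 0.18, 0.12 ± 0.21 and 0.18 ± 0.24.

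Within the chain, old Fabp4 shRNA replicate 3 was uneven across roles. The 13 core subunits of complexes I to III (7 of complex I, 4 of complex II, Cyc1 and Uqcrfs1) deviated there by a median of -0.079 from the 9-library mean, and the 47 other subunits of complexes I, III and IV, with Uqcrc1 and Uqcrc2 counted among them, by -0.57. Within complex I the core subunits deviated by -0.48 and the accessory ones by -0.54, and complex II deviated by 0.086. In complex V the 5 subunits of the catalytic F1 head deviated by -0.21 and the 11 subunits of the membrane part and stalk by -0.68. Among 90 members with an mRNA length, the deviation in this library went with length at a Spearman rho of 0.257, as a description across genes, against -0.330 to 0.257 in the other 8 libraries, so it did not stand apart among the members. The 38 subunits with mRNA of at most 863 bases had a median of -0.56 there and the 38 longer ones -0.47. In old control against young, the shorter and the longer subunits had medians of -0.41 and -0.39. The part of length or muscle RNA in these values was not tested.

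Other mitochondrial genes place these values. Of 32 nuclear genes for mitochondrial proteins outside the chain (import, carriers, citric acid cycle, chaperones), 32 were below 0 in old control against young (28 without scaling), with a median of -0.33, 6 lower and 0 higher at an unadjusted p under 0.05 (background 4.07% and 6.42%) and 0 called by edgeR. Idh2, the mitochondrial isocitrate dehydrogenase, was 68.9, 76.9 and 73.8 CPM in old control livers, against 109, 122 and 181 CPM in young livers (-0.91 ± 0.24, adjusted p = 0.258). The highest young Idh2 value is that of the unnumbered library, without which the fold change was -0.68 ± 0.23, and with the other reads of that name it was -0.42 ± 0.26. Vdac1, the channel of the outer membrane, was 110.1, 129 and 117 CPM in old control livers, against 181, 153 and 209 CPM in young livers (-0.61 ± 0.20, adjusted p = 0.363). Both were below young in all 3 old control livers. In old Fabp4 shRNA against old control the list's median was 0.15, and in old Fabp4 shRNA against young it was -0.14 with 23 of 32 below 0 (0.15 and 11 of 32 without scaling), beside -0.48 for the subunits.

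The 13 subunits encoded by mitochondrial DNA varied far more between libraries. They took 8.29%, 3.86% and 3.81% of counts in old Fabp4 shRNA replicates 1, 3 and 6, 4.08%, 10.6% and 14.3% in old control replicates 1, 2 and 5, and 13.6%, 11.1% and 6.74% in young replicates 1 and 5 and the unnumbered young library. The ranges of the groups overlapped. Their median log2 fold change was -0.22 in old control against young, with 0 of 13 at an unadjusted p under 0.05, -1.14 in old Fabp4 shRNA against old control, with 5 lower (background 3.48%), and -1.40 in old Fabp4 shRNA against young, with 8 lower (background 4.5%), and 0 were called in any of these comparisons. The 2 with the smallest p in old control against young were mt-Atp6, a complex V subunit, at -1.38 ± 0.88 (0.37 without young replicate 1), and mt-Co3, a complex IV subunit, at -0.97 ± 0.69.

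Of 20 regulators of mitochondrial genes, 9 were below 0 in old control against young, with a median of 0.049 (7 and 0.19 without scaling), 1 lower and 0 higher at an unadjusted p under 0.05. Esrra, a nuclear receptor that drives respiratory genes, was 40.1, 21.9 and 27.8 CPM in old control livers, against 55.7, 32.8 and 53.7 CPM in young livers, with overlap (-0.66 ± 0.26, adjusted p = 0.410). Sirt1, a deacetylase, was 13.7, 16.1 and 16.3 CPM in old control livers, against 12.3, 11.1 and 10.5 CPM in young livers, all above young (0.44 ± 0.21, adjusted p = 0.484). The plot of the lists sets these side by side.

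**Figure D5:**
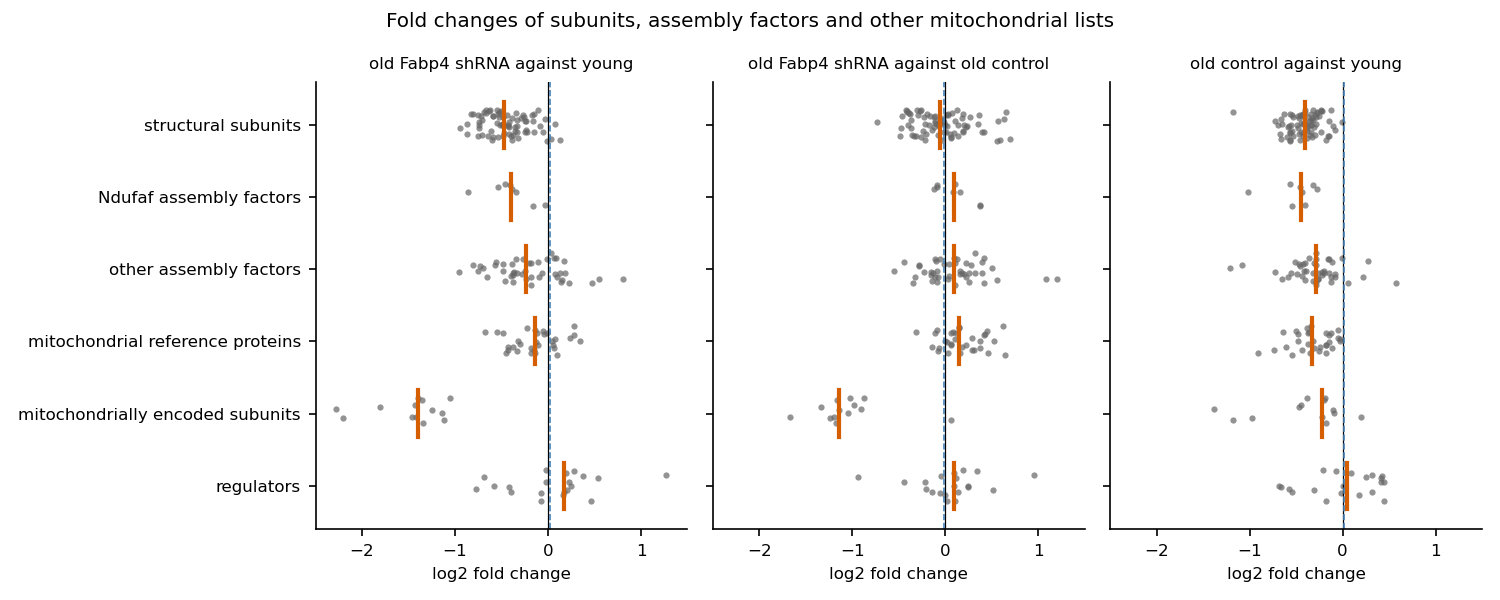
Log2 fold change (x axis) of each tested gene of 6 lists in the 3 comparisons, each dot 1 gene, with orange bars for the list medians and a dashed line for the median of all tested genes; 2 points lie outside the axis. The structural subunits have medians of -0.48, -0.059 and -0.40 from left to right, and -0.17, 0.10 and -0.26 without TMM factors.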

How the data were processed

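Liver RNA-seq of 9 mice was aligned with HISAT2 to GRCm38.p6, per the submitters' processing notes. No source used here names the counting tool, its use of strand or the annotation. The authors deposited a table of raw counts per gene and FPKM values per gene for the same libraries. The labels describe the mice of a group as independent biological replicates. The extract protocol in the labels names heart cells although the labelled tissue is liver.

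Differences in the counts were assessed by edgeR 4.0.16 under R 4.3.3 (quasi-likelihood fit with robust spread, filterByExpr, TMM scaling, 1 mean per group over all 9 libraries, two-sided), and p-values were adjusted by Benjamini-Hochberg over all 14025 genes tested. DESeq2 1.42.0, limma-voom and limma-trend on log2(FPKM + 1) or log2(FPKM + 0.1) with limma 3.58.1, other scalings and filters, leaving out each library, a replicate block and the 6 libraries of a comparison alone were alternatives. The fit was tested on simulated data. Where FPKM of the unnumbered young library held other reads, whole reads were recovered from it: 100% of 17889 values came out whole within 0.05 reads, 11807196 in all, and edgeR on them called 10 of 13945 genes with age, 0 with the hairpin and 58 between old Fabp4 shRNA and young livers, with 0 members among them. CPM values are counts scaled to library size with TMM factors. The 100 members and the gene lists were chosen with earlier results of these data known. Named genes were the 2 members of each complex with the smallest p in old control against young, the 3 with the smallest p in each other comparison, all tissue isoforms and Ndufaf genes, the subunits with the highest and lowest FPKM of each complex, members called, and the 2 genes with the smallest p from each other list. Reads of near-identical processed copies elsewhere in the genome could be split by the counting, so single members are uncertain to that extent. Floors cover counting error only, while standard errors and intervals also include the spread between libraries. The values of 1 member are not reported or plotted here, though counts and medians include it.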

Additional observations from a re-analysis of the deposited data

How the results depend on the processing

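Of the group values recomputed under the alternatives, 744 stayed within the limits set for their size and 48 moved. Those limits did not ask for the same sign, so a median near 0 could change sign and still count as kept. Of the values of named genes 922 were unchanged in call and direction, 7 passed the threshold and 12 changed sign. The cause of these changes was not tested, except that without scaling (total counts alone, no TMM factors) the median of all genes itself moved. It was then 0.16 in old control against young (with TMM factors 0.012), 0.13 in old Fabp4 shRNA against old control (-0.013) and 0.31 in old Fabp4 shRNA against young (0.023). Without scaling the lower members were 7 in old control against young and 5 in old Fabp4 shRNA against young, and the higher ones 8 in old Fabp4 shRNA against old control. The medians were then -0.37 for complex III and -0.14 for the other assembly factors in old control against young, and 0.25 and 0.24 in old Fabp4 shRNA against old control. In old Fabp4 shRNA against young they were -0.17 for all structural subunits, -0.18, 0.080, -0.13, -0.065 and -0.18 for complexes I to V, -0.11 for cytochrome c, -0.10 for Ndufaf and 0.055 for the other assembly factors. DESeq2 called 2 members in old control against young and 3 in old Fabp4 shRNA against young. Among all 14025 genes it called 168 and 124 in these comparisons. limma-trend on log2 FPKM gave complex II medians of -0.34 (pseudocount 1) and -0.34 (0.1) in old control against young, and in old Fabp4 shRNA against young 1 call and 42 lower members with either pseudocount. In the latter comparison it called 53 (pseudocount 1) and 75 (0.1) of 14011 genes. With the recovered reads the complex II median was -0.36 in old control against young and -0.012 in old Fabp4 shRNA against young, where 1 member was higher.

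Leaving out each library in turn gave 10 to 29 lower members in old control against young, 0 to 8 lower and 2 to 7 higher in old Fabp4 shRNA against old control, and 14 to 40 lower in old Fabp4 shRNA against young. The complex II median ranged over 0.075 to 0.35 in old Fabp4 shRNA against old control. In old Fabp4 shRNA against young the medians ranged over -0.59 to -0.28 in complex I, -0.50 to -0.30 in complex III and -0.55 to -0.27 in complex V. Without both the unnumbered young library and old Fabp4 shRNA replicate 3, a choice made after seeing the data, 0 members were lower and 7 higher in old Fabp4 shRNA against old control, 17 were lower in old Fabp4 shRNA against young and the complex III median there was -0.29.

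In old control against young, Cycs changed sign to 0.031 without scaling, 0.067 and 0.068 on log2 FPKM, 0.089 with recovered reads, 0.059 without both libraries that stood apart, and within -0.22 to 0.074 leaving out single libraries. Ndufb2 was 0.050 and Atp5h 0.015 without scaling. Leaving out single libraries, Atp5h ranged over -0.34 to 0.064 and mt-Atp6 over -1.90 to 0.37.

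Number 1 occurs in all 3 groups and number 5 in young and old control. Deviations of same-numbered libraries correlated at -0.0457 to 0.112, so the numbers were not taken to pair mice. With the replicate number as a block 26 members were lower in old control against young, 2 were higher in old Fabp4 shRNA against old control and the complex II median there was 0.064. Depth limits the low members: under the floor of 3 counts, isoforms at or near 0 cannot be compared.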
